A study of Mus musculus with 31 samples.

Results

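Aromatic and other amino acid catabolism is described here through 9 genes: Tat, Hpd, Hgd, Fah, Tdo2, Haao, Gpt, Got1 and Sds. The members were taken by gene symbol from the annotation of the 25697 probes on the array, which cover 16593 named genes. Of the 9 genes, 7 had a probe, 1 probe each, and Hgd and Sds had none in the annotation used here and were not analysed here.

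The data are Illumina mouse BeadChip arrays of whole-organ RNA from male C57BL/6J mice aged 20 to 30 weeks, with 1 array per sample. All groups received LPS (lipopolysaccharide, from the outer membrane of Gram-negative bacteria, which provokes inflammation), and no group without LPS was measured. They also received modIVIg (a modified immunoglobulin preparation whose modification the labels do not describe), IVIg (pooled IgG made for infusion into a vein) or vehicle. Liver had 4 modIVIg, 4 IVIg and 4 vehicle arrays, and kidney had 4 modIVIg, 4 IVIg and 3 vehicle arrays. The labels do not say whether liver and kidney arrays with the same replicate number came from 1 mouse. Where arrays of a group did not come from separate mice, the p-values measure only the spread between preparations.

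Tyrosine is broken down in a chain of steps that starts with Tat, the tyrosine aminotransferase, passes through Hpd (4-hydroxyphenylpyruvate dioxygenase) and Hgd (homogentisate dioxygenase), and ends with Fah, the fumarylacetoacetase that releases fumarate and acetoacetate. Tryptophan enters the kynurenine pathway through Tdo2, the tryptophan dioxygenase of hepatocytes, and Haao, the 3-hydroxyanthranilate dioxygenase, makes the precursor of quinolinate on the way to NAD. Gpt and Got1 are the alanine and the cytosolic aspartate aminotransferase, which pass amino groups between amino acids and keto acids, and Sds is a serine dehydratase that forms pyruvate. Tat and Tdo2 are classical glucocorticoid-inducible genes of the liver.

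The promoters of 4 genes are shown: those of Hpd and Haao, which were lower in modIVIg livers, and those of Tat and Tdo2, which were detected in liver but on none of the kidney arrays. Gpt, also lower in modIVIg livers, had no entry in the promoter table. Each is the 250 bases before the RefSeq transcript start in GRCm38.p6, read 5′ to 3′ on the strand of the gene, at chr5:123182724-123182973 (minus strand) for Hpd, chr17:83846791-83847040 (minus) for Haao, chr8:109990186-109990435 (plus) for Tat and chr3:81975729-81975978 (minus) for Tdo2. Capitals mark matches, on either strand, to 6 motifs, and no matches overlap.
Hpd: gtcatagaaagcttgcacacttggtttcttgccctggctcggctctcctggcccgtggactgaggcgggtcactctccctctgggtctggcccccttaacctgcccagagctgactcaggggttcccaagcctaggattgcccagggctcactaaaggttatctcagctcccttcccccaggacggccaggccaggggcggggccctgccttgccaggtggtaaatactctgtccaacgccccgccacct
Haao: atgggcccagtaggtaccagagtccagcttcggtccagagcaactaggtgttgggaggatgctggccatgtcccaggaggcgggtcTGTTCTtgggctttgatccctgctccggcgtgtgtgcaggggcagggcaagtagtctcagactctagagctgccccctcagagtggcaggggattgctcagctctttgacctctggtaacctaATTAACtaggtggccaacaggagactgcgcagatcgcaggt
Tat: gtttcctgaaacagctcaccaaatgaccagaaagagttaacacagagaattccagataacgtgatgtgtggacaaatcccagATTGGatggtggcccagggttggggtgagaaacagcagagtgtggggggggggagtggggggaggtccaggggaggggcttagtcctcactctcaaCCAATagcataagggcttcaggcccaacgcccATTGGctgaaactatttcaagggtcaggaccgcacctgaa
Tdo2: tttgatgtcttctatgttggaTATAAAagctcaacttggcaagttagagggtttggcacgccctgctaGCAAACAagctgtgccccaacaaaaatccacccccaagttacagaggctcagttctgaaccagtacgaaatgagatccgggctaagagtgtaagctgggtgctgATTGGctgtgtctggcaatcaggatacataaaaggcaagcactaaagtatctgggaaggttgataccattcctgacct
The motifs searched were the TATA box TATAAA, the CCAAT box CCAAT, the HNF1 core GTTAAT, the FOXA site TGTTTNC, the glucocorticoid receptor core TGTTCT and the HNF4 core CAAAGT. The Hpd window held no match to any of these letters. The Haao window held 1 match to the glucocorticoid receptor core, a motif found in 16.1% of 32851 promoter windows of the same length, and 1 to the HNF1 core, found in 6.43%. The Tat window held 3 CCAAT matches, a motif found in 33.8% of windows. The Tdo2 window held 1 match each to the TATA box (12.4% of windows), the CCAAT box and the FOXA site (17.8%). The HNF4 core, found in 12.6% of windows, was in none of the 4 shown. A match describes these letters only.

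The share of probes detected at a detection p-value under 0.01 was 31.6% to 35.3% on liver arrays and 34.8% to 41.2% on kidney arrays. The features tested numbered 7155 in liver and 8544 in kidney, a feature being the brightest kept probe of a gene or an unnamed probe. All 7 measured genes passed the filter in liver and 5 passed in kidney, where Tat and Tdo2 were detected on 0 of 11 arrays. All 11 annotated hepatocyte markers were detected in liver, and the 7 annotated proximal tubule markers were detected on none of the liver arrays. In kidney, all 7 were detected on at least 1 array. Of the 11 hepatocyte markers 8 were also detected on at least 1 kidney array, with a summed linear signal of 59520 to 85660 over the 11, while Alb, Cps1 and Fgb were detected on none. Values below are background-corrected, quantile-normalised log2 signals, given for replicates in numerical order. Changes are fitted log2 differences with their standard error, and a gene was called at a Benjamini-Hochberg adjusted p under 0.05 over all features of the organ in limma.

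In liver, 3 of the 7 genes fell with modIVIg relative to vehicle: Hpd in the tyrosine pathway, Haao in the kynurenine pathway and the aminotransferase Gpt. Each was between 1.62-fold and 1.92-fold lower, and for each the highest modIVIg array lay below the lowest vehicle array. The other 4 genes, Tat, Fah, Tdo2 and Got1, did not pass the test. Among all 7155 liver features 4.92% were called in this comparison, 2.95% were called and lower, and 19.8% had groups that did not overlap. The median change of the 7 genes was −0.39, against 0.04 over all features.

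**Figure D1:**
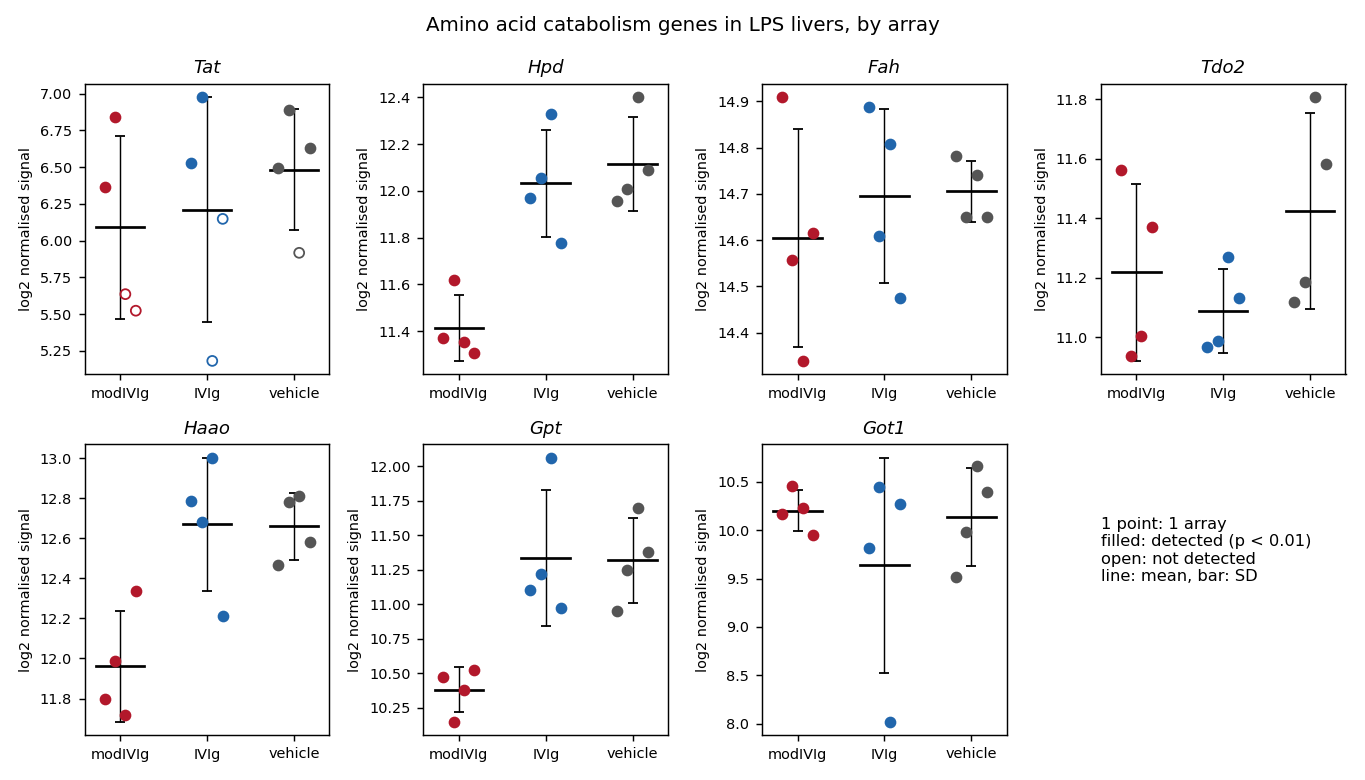
Normalised log2 signal (y axis, each panel with its own range) of the 7 measured genes on each liver array, by treatment; points are arrays, open where the probe was not detected, lines are means and bars SD. The modIVIg points of Hpd, Haao and Gpt lie below every vehicle point, while Tat, Fah, Tdo2 and Got1 overlap.

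Tat, which takes the amino group from tyrosine, was close to background. Its probe was detected on 2 of 4 modIVIg, 2 of 4 IVIg and 3 of 4 vehicle livers. The signals were 6.36, 6.84, 5.64 and 5.52 in modIVIg livers, 6.53, 6.98, 5.18 and 6.15 in IVIg livers, and 6.49, 6.89, 5.92 and 6.63 in vehicle livers. The 3 groups overlapped throughout, and the spread within each was wider than the gap between their means. The change by modIVIg relative to vehicle was −0.39 ± 0.381 (adjusted p = 0.561), by modIVIg relative to IVIg −0.12 (adjusted p = 0.901), and by IVIg relative to vehicle −0.27 (adjusted p = 0.999).

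Hpd, the second step of tyrosine breakdown, read 11.37, 11.62, 11.35 and 11.31 in modIVIg livers, 11.97, 12.05, 12.33 and 11.78 in IVIg livers, and 11.96, 12.01, 12.40 and 12.09 in vehicle livers. All 4 modIVIg arrays were below all 8 other arrays, and the IVIg and vehicle arrays overlapped. The group means were 11.41 ± 0.14 with modIVIg, 12.03 ± 0.229 with IVIg and 12.11 ± 0.199 with vehicle (SD, n = 4 each). Hpd fell by 0.70 ± 0.148 with modIVIg relative to vehicle (adjusted p = 0.0238), which is 1.63-fold lower. The call was lost in 6 of the 12 fits that left out 1 liver array, where the adjusted p was 0.065, 0.0661 and 0.0605 when modIVIg replicate 1, 3 or 4 was dropped and 0.0566, 0.065 and 0.053 when vehicle replicate 2, 3 or 4 was. The change stayed between −0.77 and −0.61 in these 12 fits.

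Fah, the last step, was bright and nearly level across treatments. It read 14.91, 14.56, 14.34 and 14.61 in modIVIg livers, 14.89, 14.61, 14.81 and 14.47 in IVIg livers, and 14.78, 14.65, 14.74 and 14.65 in vehicle livers. The vehicle arrays spanned 0.131, a narrower range than the 0.571 of the modIVIg arrays, which lay on both sides of them. The change by modIVIg was −0.10 ± 0.141 relative to vehicle (adjusted p = 0.7) and −0.09 relative to IVIg (adjusted p = 0.792), and that by IVIg relative to vehicle was −0.01 (adjusted p = 0.999).

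In the kynurenine pathway, Tdo2, the entry step, read 11.56, 10.94, 11.01 and 11.37 in modIVIg livers, 10.97, 10.99, 11.27 and 11.13 in IVIg livers, and 11.12, 11.18, 11.81 and 11.58 in vehicle livers. All 3 groups overlapped, with the highest signals on vehicle replicates 3 and 4 and on modIVIg replicate 1. The changes were −0.21 ± 0.185 by modIVIg relative to vehicle (adjusted p = 0.529), 0.13 by modIVIg relative to IVIg (adjusted p = 0.77) and −0.34 ± 0.185 by IVIg relative to vehicle (adjusted p = 0.999).

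Haao, further down the same pathway, read 11.80, 11.99, 11.72 and 12.34 in modIVIg livers, 12.79, 12.68, 13.00 and 12.21 in IVIg livers, and 12.46, 12.78, 12.81 and 12.58 in vehicle livers. The modIVIg arrays were all below the vehicle arrays, but the lowest IVIg array (replicate 4) lay below the highest modIVIg array (replicate 4). The means were 11.96 ± 0.275 with modIVIg, 12.67 ± 0.332 with IVIg and 12.66 ± 0.166 with vehicle (SD, n = 4 each). Haao fell by 0.70 ± 0.185 with modIVIg relative to vehicle, with an adjusted p of 0.0493 that lies just inside the threshold. The call was lost in 9 of 12 fits without 1 array: adjusted p was 0.121, 0.0935 and 0.117 when modIVIg replicate 1, 2 or 3 was dropped, 0.0652 and 0.0513 when IVIg replicate 1 or 2 was, and 0.0572, 0.134, 0.109 and 0.0827 when vehicle replicate 1, 2, 3 or 4 was. It was also lost without a detection filter (0.0823), with all kept probes tested (0.0516) and with liver and kidney normalised together (0.0537).

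Gpt, the alanine aminotransferase, read 10.47, 10.15, 10.38 and 10.52 in modIVIg livers, 11.10, 11.22, 12.06 and 10.97 in IVIg livers, and 10.95, 11.25, 11.70 and 11.38 in vehicle livers. All 4 modIVIg arrays were below all 8 others, and IVIg replicate 3 and vehicle replicate 3 were the highest of their groups. The means were 10.38 ± 0.166 with modIVIg, 11.34 ± 0.494 with IVIg and 11.32 ± 0.309 with vehicle (SD, n = 4 each). Gpt fell by 0.94 ± 0.229 with modIVIg relative to vehicle (adjusted p = 0.0385), 1.92-fold lower. The call was lost in 8 of 12 fits without 1 array, where the adjusted p was 0.0853, 0.0903, 0.0826 and 0.0711 when modIVIg replicate 1, 2, 3 or 4 was dropped, 0.0504 when IVIg replicate 1 was, and 0.0968, 0.0928 and 0.0789 when vehicle replicate 2, 3 or 4 was. Without a detection filter its adjusted p was 0.0695.

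Got1, the cytosolic aspartate aminotransferase, read 10.17, 10.46, 10.23 and 9.95 in modIVIg livers, 9.82, 10.44, 8.02 and 10.27 in IVIg livers, and 9.51, 9.98, 10.66 and 10.39 in vehicle livers. The groups overlapped, and IVIg replicate 3 was the lowest array. The change by modIVIg relative to vehicle was 0.06 ± 0.437 (adjusted p = 0.944), and its sign turned in 1 of 11 other settings, where it was as low as −0.12, and in 2 of 12 fits without 1 array, where it was as low as −0.14. The changes were 0.56 by modIVIg relative to IVIg (adjusted p = 0.562) and −0.50 ± 0.437 by IVIg relative to vehicle (adjusted p = 0.999). Without IVIg replicate 3 these changes were 0.02 and 0.04. The 2 aminotransferases were not tested against each other.

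Relative to IVIg, none of the 7 genes passed in modIVIg livers, where 1.09% of features were called. Hpd was at −0.62 (adjusted p = 0.0627) and Gpt at −0.96 (adjusted p = 0.0629), both with groups that did not overlap, as in 9.64% of all features. Haao was at −0.71 (adjusted p = 0.0842), with groups that overlapped. These 3 differences from IVIg were close in size to those from vehicle, and both comparisons share the modIVIg arrays. Other settings called Hpd at an adjusted p of 0.0496 without background correction and 0.0416 with a trended prior, and Gpt at 0.0413 with array weights and 0.048 with a trended prior. Leaving out IVIg replicate 4 gave adjusted p of 0.0434 for Hpd, 0.0474 for Gpt and 0.0342 for Haao, and leaving out IVIg replicate 3 gave 0.0357 for Gpt.

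With unmodified IVIg relative to vehicle 0 of the 7 genes passed, and 0% of all liver features passed there, with 128 features at an unadjusted p under 0.05. The changes ranged from −0.50 for Got1 to 0.02 for Gpt, and all 7 adjusted p were 0.999. The median over the 7 genes was −0.08, against 0.01 over all features.

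**Figure D2:**
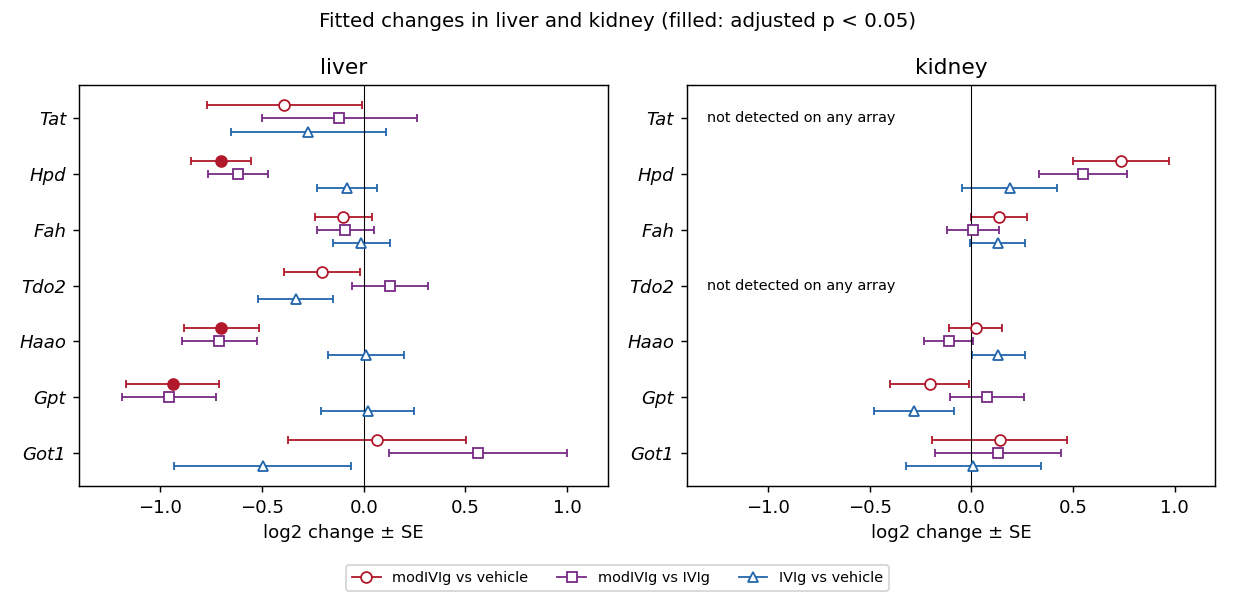
Fitted log2 change (x axis, bars are standard errors) of each gene in liver and kidney, by modIVIg relative to vehicle, by modIVIg relative to IVIg and by IVIg relative to vehicle; filled points have an adjusted p under 0.05. The filled points are Hpd (−0.70), Haao (−0.70) and Gpt (−0.94) in liver by modIVIg relative to vehicle, and Hpd stands at 0.74 in kidney without passing.

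The rest of amino acid breakdown was read from lists of 86 further symbols, some of them synonyms, of which 72 were annotated and 63 were measured in liver. With modIVIg relative to vehicle 6 of the 63 fell and 1 rose, where 2.95% of all liver features were called lower and 1.97% called higher. Leaving out 1 array gave 1 called gene (without vehicle replicate 2) to 16 called genes (without IVIg replicate 3), and the kynureninase Kynu was called in all 12 of these fits. Of the 63, 50 had a change below 0, against 44.9% of all features, and their median was −0.36, against 0.04 over all features. In the phenylalanine and tyrosine list 2 of 5 genes fell. Qdpr, which regenerates the cofactor of phenylalanine hydroxylase, averaged 10.40 ± 0.184 in modIVIg livers and 11.13 ± 0.24 in vehicle livers (SD, n = 4 each) and fell by 0.73 ± 0.165 (adjusted p = 0.0297). Fahd1, a relative of Fah known as an oxaloacetate decarboxylase, fell by 1.43 ± 0.365 (adjusted p = 0.044).

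In the kynurenine list 1 of 8 genes fell. Kynu, the kynureninase that forms the substrate of Haao, lay between 9.68 and 10.21 in modIVIg livers and between 10.97 and 11.59 in vehicle livers, and fell by 1.28 ± 0.222 (adjusted p = 0.0118), 2.42-fold lower. Relative to IVIg it fell by 1.22 ± 0.222 (adjusted p = 0.0267). In serine and glycine metabolism 2 of 8 genes fell. Gldc, of the glycine cleavage system, fell by 0.56 ± 0.138 (adjusted p = 0.0398), and Shmt1, the cytosolic serine hydroxymethyltransferase, fell by 1.09 ± 0.264 (adjusted p = 0.0379). Shmt1 was detected on 1 of 4 modIVIg and 4 of 4 vehicle livers, so most of its modIVIg signals did not stand above background, and its call was lost on the authors' deposited values (−0.51, adjusted p = 0.0543), without background correction (−0.52, adjusted p = 0.0537) and without a detection filter (adjusted p = 0.0712). In sulphur amino acid metabolism 1 of 11 fell: Ethe1, the mitochondrial persulfide dioxygenase, fell by 0.92 ± 0.174 relative to vehicle (adjusted p = 0.0158) and by 0.81 ± 0.174 relative to IVIg (adjusted p = 0.0472).

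The gene that rose was Asns, asparagine synthetase, which makes an amino acid rather than breaking one down. It averaged 10.32 ± 0.331 in modIVIg livers and 9.25 ± 0.137 in vehicle livers (SD, n = 4 each), a change of 1.06 ± 0.267 (adjusted p = 0.0418). A dimmer probe of Asns stood at 0.89 ± 0.285 and did not pass (adjusted p = 0.092). None of the 15 branched chain genes, the 3 histidine genes, the 2 lysine genes or the 4 proline and arginine genes passed, with list medians of −0.17, −0.45, −0.02 and −0.62. Relative to IVIg, 2 of the 63 genes fell, Kynu and Ethe1, against 0.894% of all features called lower, and leaving out any modIVIg array, or IVIg replicate 1 or 2, ended both calls (adjusted p up to 0.0976 for Kynu and 0.133 for Ethe1). Ethe1 also lost this call without vehicle replicate 1, 3 or 4. Relative to vehicle, Ethe1 lost its call only without vehicle replicate 2 (adjusted p = 0.0532), among the 12 fits without 1 array. Qdpr lost it in 6 of these fits, Gldc and Shmt1 in 8, Fahd1 in 9 and Asns in 10, and each of these 5 lost it without vehicle replicate 2, 3 or 4 or modIVIg replicate 1, 2 or 3, with adjusted p up to 0.132. Vehicle replicate 1 (Gldc, Fahd1 and Asns), modIVIg replicate 4 (Shmt1, Fahd1 and Asns), IVIg replicate 1 (all but Qdpr) and IVIg replicate 4 (Asns) made up the rest. Without a detection filter Gldc (adjusted p = 0.0554), Fahd1 (0.0875) and Asns (0.0811) also lost it. With IVIg relative to vehicle 0 of 63 passed.

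**Figure D3:**
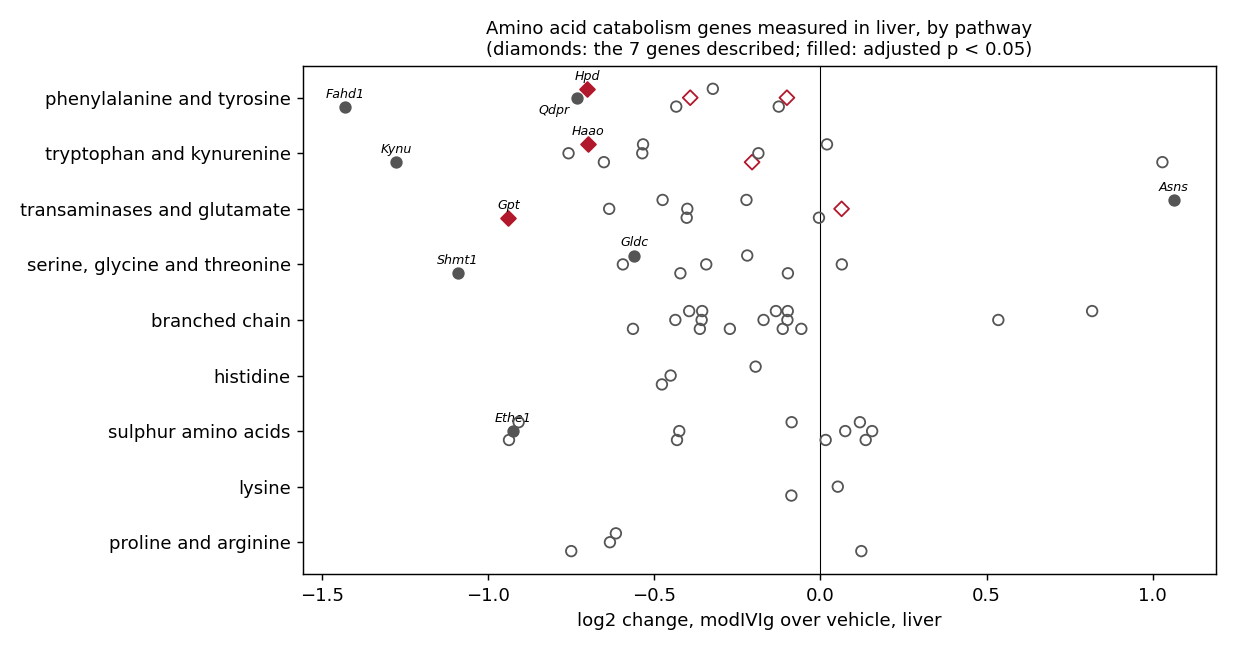
Fitted log2 change by modIVIg relative to vehicle in liver (x axis) of every measured gene of the amino acid lists, by pathway (rows); diamonds are the 7 genes described first and filled symbols have an adjusted p under 0.05. Filled symbols lie left of 0 except Asns, at 1.06.

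Of 17 measured regulators and glucocorticoid-responsive genes, 1 fell and 1 rose with modIVIg relative to vehicle, with a median of −0.12. Among all liver features 2.95% were called lower and 1.97% higher, so a single gene of the 17 in each direction is near the background. Pck1, the gluconeogenic phosphoenolpyruvate carboxykinase, fell by 0.68 ± 0.163 (adjusted p = 0.0374). Foxa1, a forkhead factor of liver genes, was detected on 3 of 4 modIVIg and 0 of 4 vehicle livers. It was at least 1.09-fold higher, a bound set against the lowest detected signal of each vehicle array and not tested. The adjusted p of 0.0379 belongs to the fitted change of 1.48 from vehicle signals that were not detected. Without 1 array the call of Pck1 was lost in 7 of 12 fits, those without vehicle replicate 2, 3 or 4 or any modIVIg replicate (adjusted p up to 0.104). That of Foxa1 was lost in 9, those without any vehicle or modIVIg replicate or IVIg replicate 1 (adjusted p up to 0.105). Without a detection filter both calls were also lost (adjusted p = 0.058 for Pck1 and 0.075 for Foxa1).

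Cell type markers were read in the same comparison. The summed linear signal of the 11 hepatocyte markers was 344000 to 348400 on modIVIg, 358000 to 376600 on IVIg and 358300 to 376500 on vehicle livers, with 10 of 11 lower by modIVIg relative to vehicle, a median of −0.07 and 0 called. Among all liver features 2.95% were called lower. Of 7 measured Kupffer cell markers 5 fell, with a median of −1.01. The summed signal of the 8 annotated Kupffer cell markers was 798.9 to 2057 with modIVIg, 1052 to 2354 with IVIg and 1615 to 2967 with vehicle. Cd5l of that list was detected on none of the liver arrays. Of 4 red cell genes 1 fell, and the 6 annotated lymphocyte markers were detected on none of the liver arrays. Of 6 measured neutrophil markers 0 were called, with a median of −0.17. The 2 measured adipocyte markers had a median of −0.47, with 0 called. The summed signal of the 9 annotated adipocyte markers was 621 to 862 with modIVIg, 798.5 to 2942 with IVIg and 858.3 to 1318 with vehicle. Of these 9, 6 were detected on at least 1 IVIg liver, against 2 in each other group. The part of these markers in the changes of Hpd, Haao and Gpt was not tested. In whole-organ RNA fewer cells of a type and less RNA per cell cannot be told apart.

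A mean profile of the 7 genes across the 12 liver arrays was taken from their standardised signals, and the genes did not all follow it. Set against the mean of the other 6 genes, Hpd was at r = 0.725, Haao at 0.627 and Gpt at 0.598, Fah at 0.364 and Tdo2 at 0.285, while Tat was at 0.0616 and Got1 at −0.224. Among all other liver features the 5 most like the mean of the 7 were Slc38a3 (Pearson r = 0.942, Spearman 0.902), a glutamine transporter, Abcc6 (0.935 and 0.965), a transporter of the ABC family, Pxmp2 (0.924 and 0.888), a peroxisomal membrane protein, 1 unnamed probe (0.914 and 0.783) and Mylk (0.90 and 0.902), the myosin light chain kinase. The 12 arrays share their 3 treatment groups, so these values describe likeness only.

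In kidney none of the 5 measured genes passed in any of the 3 comparisons, where 0% of the 8544 features were called. Hpd read 8.79, 8.63, 8.91 and 9.22 in modIVIg kidneys, 7.80, 8.47, 8.40 and 8.69 in IVIg kidneys, and 7.93, 8.05 and 8.48 in vehicle kidneys. All 4 modIVIg arrays were above all 3 vehicle arrays, while modIVIg and IVIg arrays overlapped. Among all kidney features 5.24% had modIVIg and vehicle groups that did not overlap, in either direction. The change was 0.74 ± 0.235 relative to vehicle (adjusted p = 0.997, unadjusted p = 0.0103 in limma) and 0.55 ± 0.217 relative to IVIg (adjusted p = 1). The kidney arrays split into replicates 1 and 2 and replicates 3 and 4, and within these parts Hpd was at 0.721 and 0.587 relative to vehicle, the second part having 1 vehicle array. Relative to IVIg it was at 0.575 and 0.519.

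Fah and Haao lay closer together in kidney than Hpd. Fah read 14.80, 14.98, 15.11 and 15.05 in modIVIg kidneys, 14.87, 14.91, 15.18 and 14.95 in IVIg kidneys, and 14.78, 14.98 and 14.78 in vehicle kidneys. Haao read 12.25, 12.27, 12.29 and 12.25 in modIVIg kidneys, 12.22, 12.36, 12.64 and 12.29 in IVIg kidneys, and 12.31, 12.22 and 12.20 in vehicle kidneys. For both genes the groups overlapped, and the changes by modIVIg relative to vehicle were 0.14 ± 0.136 for Fah and 0.02 ± 0.13 for Haao (adjusted p = 0.997 each).

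The aminotransferases also overlapped between kidney groups. Gpt read 9.10, 9.10, 9.12 and 8.76 in modIVIg kidneys, 8.50, 8.88, 9.34 and 9.05 in IVIg kidneys, and 9.11, 9.33 and 9.24 in vehicle kidneys, a change of −0.21 ± 0.195 by modIVIg and −0.28 ± 0.195 by IVIg relative to vehicle. Got1 read 9.14, 8.86, 9.05 and 8.50 in modIVIg kidneys, 8.90, 9.13, 7.77 and 9.22 in IVIg kidneys, and 9.03, 8.75 and 8.45 in vehicle kidneys, a change of 0.14 ± 0.332 by modIVIg relative to vehicle. IVIg replicate 3 had the lowest Got1 signal in kidney, as the array of that label did in liver. Of the other amino acid genes 0 of 59 passed in kidney in any comparison. Adipocyte markers in kidney had a median change of −0.04 by modIVIg relative to vehicle, 2.22 by modIVIg relative to IVIg and −2.68 by IVIg relative to vehicle, with 0 called. Their summed signal was 26630 to 30880 with modIVIg, 20840 to 31820 with IVIg and 24760 to 39290 with vehicle, and Plin1, Fabp4 and Retn of the 9 annotated were not detected. By modIVIg relative to vehicle in kidney, 7 of 7 measured hepatocyte markers were lower (median −0.326), as were 5 of 6 proximal tubule markers (median −0.103). Of 4 measured neutrophil markers 0 were lower (median 0.23), and 0 markers of these 3 lists were called. The part of the adipocyte and other markers in the kidney values was not tested.

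**Figure D4:**
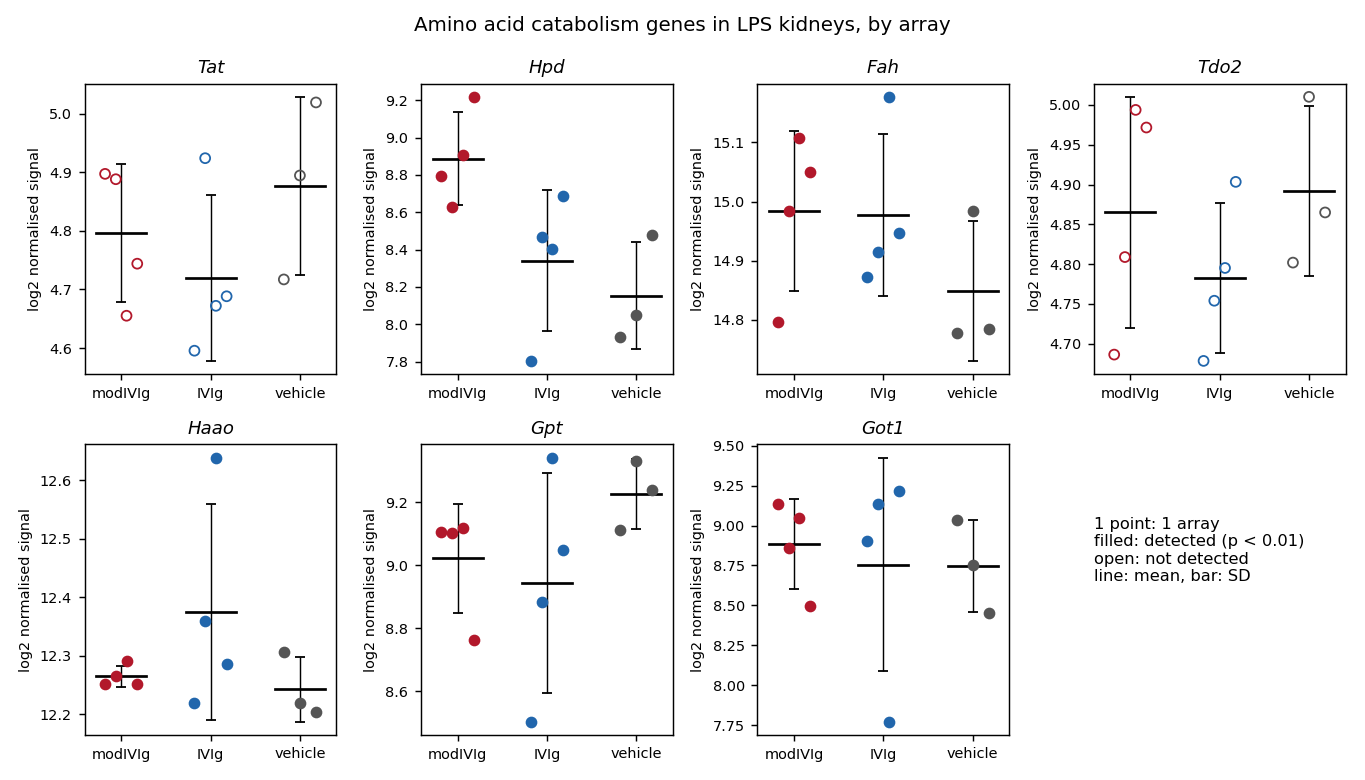
Normalised log2 signal (y axis, each panel with its own range) of the 7 genes on each kidney array, by treatment; points are arrays, open where the probe was not detected, lines are means and bars SD. The modIVIg points of Hpd lie above the vehicle points, and Tat and Tdo2 have only open points.

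The difference between the organs was tested directly over the 6739 features kept in both. Hpd differed in its response to modIVIg relative to vehicle: the liver change minus the kidney change was −1.44 ± 0.269 (adjusted p = 0.0329), and 1 of 5 genes was called, against 0.119% of features. The call was kept under the 5 other settings tried (adjusted p from 0.00376 to 0.0469) and lost in 14 of 23 fits without 1 array. Adjusted p in those was 0.0957, 0.0771 and 0.0789 when liver modIVIg replicate 1, 3 or 4 was dropped, 0.0534 and 0.0505 when liver IVIg replicate 1 or 2 was, and 0.0641, 0.0642, 0.0669 and 0.0586 when liver vehicle replicate 1, 2, 3 or 4 was. In kidney it was 0.0516, 0.101 and 0.0932 when modIVIg replicate 1, 3 or 4 was dropped and 0.14 and 0.147 when vehicle replicate 1 or 2 was. Across all 23 fits the difference lay between −1.60 and −1.33.

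Haao, at −0.72 ± 0.229 (adjusted p = 0.36), and Gpt, at −0.73 ± 0.313 (adjusted p = 0.527), did not pass in the same test. By modIVIg relative to IVIg, Hpd differed between the organs by −1.17 ± 0.258 (adjusted p = 0.135), and 0 of 5 genes passed, against 0.0297% of features. Its adjusted p was 0.0413 with array weights, 0.0253 with the replicate number as a block in kidney and 0.0193 with it as a block within each organ. In kidney, arrays of the same number deviated together, as did arrays of different number among replicates 1 and 2 and among replicates 3 and 4. By IVIg relative to vehicle 0 of 5 genes and 0% of features passed.

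Levels in the organs were compared under vehicle after normalising both together. All 7 genes were called, against 57.1% of 9008 features. Tat and Tdo2 entered this test through their detection in liver only. Tdo2 averaged 11.61 ± 0.317 in liver (SD, n = 4) and was not detected in kidney, so liver was at least 48.3-fold higher. Tat averaged 6.78 ± 0.455 in liver, was not detected in kidney and was at least 1.69-fold higher. Both bounds are set against the lowest detected signal of each kidney array and were not tested. The adjusted p, 1.63e-18 for Tdo2 and 0.000216 for Tat, belong to fitted differences from kidney signals that were not detected. The other 5 genes were detected on all arrays of both organs.

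Hpd averaged 12.28 ± 0.183 in vehicle livers and 7.86 ± 0.29 in vehicle kidneys (SD, n = 4 and 3), 21.3-fold higher in liver (adjusted p = 4.85e-14). The corresponding liver over kidney ratio of Hpd was 7.98 with modIVIg and 17.7 with IVIg. Gpt was 5.89-fold (adjusted p = 5.05e-09) and Got1 3.77-fold (adjusted p = 0.000725) higher in vehicle livers than in vehicle kidneys, and the ratio of Gpt was 3.66 with modIVIg and 7.28 with IVIg. Haao averaged 12.78 ± 0.158 in vehicle livers and 12.08 ± 0.0569 in vehicle kidneys, 1.62-fold higher in liver (adjusted p = 0.00118), and with modIVIg its liver and kidney means differed by 0.03.

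After the joint normalisation, Fah was the gene with less signal in liver than in kidney. Before normalisation its bead signals overlapped, at 26568.6 to 28664.1 in vehicle livers and 27291.9 to 29481.3 in vehicle kidneys. It averaged 14.61 ± 0.0527 in vehicle livers and 15.03 ± 0.13 in vehicle kidneys, a difference of −0.42 ± 0.132 (adjusted p = 0.0105). The call was lost with each organ normalised on its own (−0.14, adjusted p = 0.395) and without kidney vehicle replicate 2 (−0.34, adjusted p = 0.0618). In the joint normalisation Hpd averaged 11.60 with modIVIg, 12.20 with IVIg and 12.28 with vehicle in liver, and 8.61 with modIVIg, 8.05 with IVIg and 7.86 with vehicle in kidney. The order of the group means was thus turned round between the organs, modIVIg being lowest in liver and highest in kidney. IVIg overlapped vehicle in both organs and modIVIg in kidney. Within an organ, only the liver difference of Hpd between modIVIg and vehicle passed, and no kidney difference did.

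**Figure D5:**
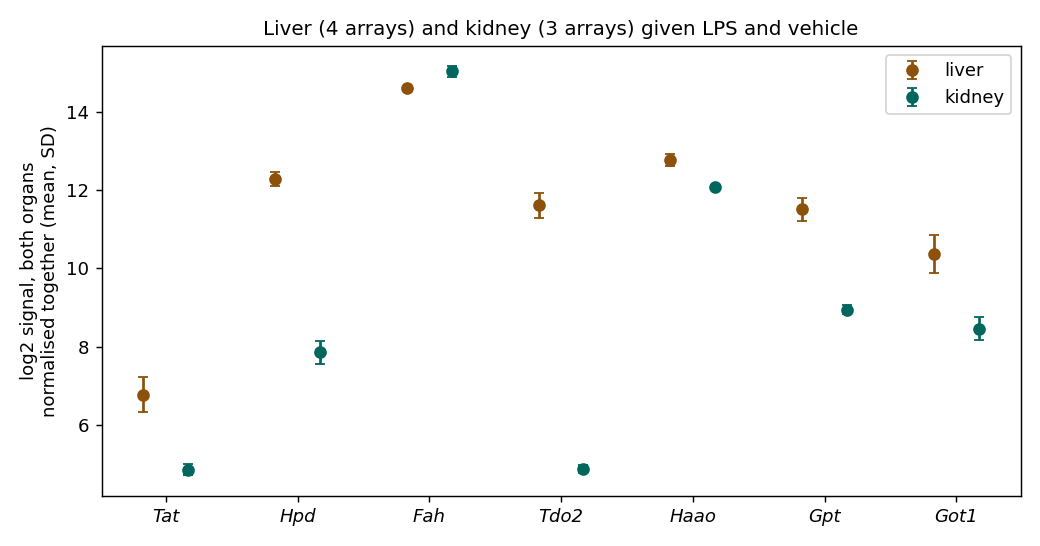
Log2 signal of the 7 genes (y axis) in liver (4 arrays) and kidney (3 arrays) under vehicle, both organs normalised together; points are means and bars SD. Liver points lie above kidney points except for Fah, and the kidney points of Tat and Tdo2 stand for undetected signal.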

How the data were processed

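Liver and kidney arrays (23 of the 31 in the tables) were grouped by sample title, and blood arrays were not analysed beyond detection. The deposited bead intensity of each probe was read out by the authors with GenomeStudio 1.9.0, per the submitters' processing notes, and is neither background-corrected nor normalised. The column headers name the deposited detection p-value of each probe without saying how it was made. On Illumina arrays it comes from the signal against negative control beads. The deposited processed table holds the authors' log2 values, normalised within an organ per the series text. The submitters' processing notes also name lumi and limma, with no role given. These log2 values served only as an alternative.

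Intensities were background-corrected and quantile-normalised for each organ by limma 3.58.1 in R 4.3.3, using neqc with an offset of 16. Probes with a detection p under 0.01 on 4 or more liver arrays, or 3 or more kidney arrays, entered the tests, and a gene was represented by its brightest kept probe. Of the probes 23978 had 1 symbol, 1719 had none and 0 had several. The 3 groups of an organ shared 1 estimate of the spread in lmFit and eBayes, with Benjamini-Hochberg adjustment over all features and a threshold of 0.05. Differences of a change between organs and levels between organs were contrasts in a fit of 6 groups. The procedure was tested on simulated data. The number of arrays limits the precision.

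The members, gene lists and tests were chosen with earlier results of these data known. All 9 members are named, together with every list gene past the threshold. Alternatives covered background correction, offset, the authors' values, the detection filter, probe choice, joint normalisation, array weights, the variance prior, the groups fitted, the replicate number as a block and each array left out. Arrays of the same number deviated together in all 10 kidney pairs (correlations across features of 0.587 to 0.849), but so did 10 of 30 pairs of different number, those among replicates 1 and 2 or among 3 and 4, so the number does not stand apart from that split, which comes from the data and not from the labels. A block in kidney only, values within the 2 parts of the kidney arrays, and the alternatives for list genes other than the members were added after seeing the data. Promoters came from RefSeq for 7 of the 9 genes. The files name no slides, so no slide block was run.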

Additional observations from a re-analysis of the deposited data

Results flagged for a closer look

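Of 31 groups of 4 arrays examined for an array far from the others, 1 had one, and chance gives about 1 in 20. In modIVIg kidneys the Gpt signal of replicate 4 was 8.76, and its gap to the nearest array was 0.954 of the range of the group.

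The effect of modIVIg relative to vehicle on Hpd differed between liver and kidney by -1.44 (liver change minus kidney change) in limma's test of that difference, with an adjusted p of 0.0329. The liver change was -0.70 and the kidney change was 0.74, which did not pass by itself.

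In blood, which the comparisons do not use, Fah was detected on 1 of 8 arrays, IVIg replicate 2, at a bead signal of 164. The other 6 measured genes were detected on none of the blood arrays, 1 of which had 0.712% of its probes detected.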

How the results depend on the processing

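The called changes of the 7 genes and of the 9 other named genes kept their direction under the settings run for each. Signs of the 7 genes turned only for changes that neither setting called. For modIVIg relative to vehicle in liver, the 352 features called became 187 without a detection filter, 1112 with array weights, 821 with only the 2 groups compared and 540 with the replicate block. The 3 of 7 genes called became 1 without the filter, and 2 with the replicate block, where Haao had an adjusted p of 0.0642. Same-numbered liver arrays correlated over 0.1 in 6 of 12 pairs (median 0.113), against 12 of 36 pairs of different number (median −0.0601). Only 3 of 12 liver arrays correlated best with an array of their own number, so the liver numbers were not taken as pairs. The 7 other amino acid genes called became 12 without background correction or on the authors' values, 3 without a detection filter, 11 with detection on every array or a trended prior, 21 with array weights, 15 with only the 2 groups compared, 13 with the replicate block and 1 to 16 without 1 array. Leaving out each array gave 84 (without vehicle replicate 2 or modIVIg replicate 1) to 813 features (without IVIg replicate 3) and 0 to 3 genes. For modIVIg relative to IVIg, the 78 features became 16 without a filter, 230 with array weights, 123 with a trended prior, 19 with only the 2 groups compared and 180 with the replicate block. The 0 genes became 1 without background correction, 1 with array weights, 2 with a trended prior and 2 with the replicate block (Hpd 0.0467, Gpt 0.0423). The 2 other amino acid genes became 1 without background correction or with all kept probes tested, 0 without a filter or with only the 2 groups compared, 4 with array weights, a trended prior or the replicate block, and 0 to 5 without 1 array. Kynu then had an adjusted p of 0.0536 without a filter and 0.0603 with only the 2 groups. Foxa1 relative to vehicle had one of 0.0556 on the authors' values. Leaving out each array gave 9 to 352 features and 0 to 3 genes.

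For the organ difference by modIVIg relative to vehicle, the 8 features became 83 with array weights, 26 with a replicate block within each organ and 13 with a block in kidney only, and 2 to 13 without 1 array, with 0 to 1 genes. By modIVIg relative to IVIg, the 2 features became 31, 29 and 16 under the same 3 settings, with 1 gene called in each (Hpd), and 1 to 12 without 1 array. By IVIg relative to vehicle, 0 to 8 features were called without 1 array, the 8 without kidney vehicle replicate 1. The causes were not tested. In kidney 0 features were called under all settings, the paired fit included, with 226, 325 and 116 features at an unadjusted p under 0.05 for modIVIg relative to vehicle, modIVIg relative to IVIg and IVIg relative to vehicle. The array weight estimates stopped before full convergence in some fits. Signal near background limits Tat in liver, and Tat and Tdo2 in kidney.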
